A study of Mus musculus with 24 samples.

Results

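The genes described here are the 100 well-detected genes of TM3 cells whose signal lay furthest below sham after a nanosecond pulsed electric field (nsPEF). A probe could enter where it sat in rows 97 to 336 of the 384 rows of spots, was called well above background on all 24 arrays, carried no outlier mark and had a RefSeq symbol, which left 11467 probes of 9055 genes out of the 23787 named genes on the array. Of these genes, 3138 had a group mean below sham at 0, 4 and 24 h, and the 100 with the most negative average of the 3 log2 differences are the members. The members were thus chosen by their nsPEF minus sham differences, which are given below as a description with no test. The changes with time, averaged over both treatments, do not enter the rule and were tested. Over the probes that could enter, the rule's average difference was correlated with them, as given below, so the choice was not independent of them.

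TM3 is a mouse Leydig cell line. Cells in suspension in electroporation cuvettes received 80 pulses of 60 ns with an amplitude of 5.5 kV, giving a field of 14 kV/cm, or were sham-exposed, and the treatment lasted 180 s. RNA was taken directly after the exposure (0 h) and at 4 and 24 h, which makes 6 groups of 4 labelled biological replicates, each on a one-colour array of its own. No genetic change or drug was part of any group, and all cells were washed, strained and kept in the same binding buffer before the pulses.

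Each transcript level is the balance of its synthesis and its decay, and short-lived messages, among them those of many regulatory proteins, fall soonest when synthesis stops or decay speeds up. An electric pulse of nanosecond length charges the membranes of a cell and opens small pores in them. Leydig cells lie between the tubules of the testis and make testosterone from cholesterol in response to luteinizing hormone, and lines derived from them keep this programme to a varying extent.

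The label was compared with marker genes. Of the 7 Leydig markers on the array, Cyp17a1, Nr5a1 and Star were well above background on all 24 arrays, while Cyp11a1, Lhcgr and Hsd17b3 were not on any array and Hsd3b1 was on 1. Of the other marker lists, 5 of 8 peritubular and fibroblast genes passed on all 24 arrays (Acta2, Cnn1, Col1a1, Col1a2 and Pdgfra), as did 3 of 7 Sertoli genes (Sox9, Wt1 and Rhox5), 3 of 7 macrophage genes (Cd68, Csf1r and Cd14), 2 of 7 germ cell genes (Prm2 and Tnp1), 1 of 6 endothelial genes (Pecam1) and 1 of 4 blood genes (Hba-a1). Thy1 passed on 0 arrays, Myh11 on 17 and Des on 22. Each time point was hybridized on 1 slide of 8 arrays, so that time and slide cannot be told apart. Sham arrays took the first row of a slide and nsPEF arrays the second, so treatment and place on the slide cannot be told apart either. The 75th percentile of the intensity, on which the arrays were scaled, ran from 300.3 to 787, and its log2 nsPEF minus sham difference was -0.08, -0.41 and -0.18 at 0, 4 and 24 h (exact permutation test, two-sided, p = 0.714, 0.0286 and 0.171). The share of probes well above background, nsPEF minus sham, was -3.98, -5.52 and -4.60 percentage points at 0, 4 and 24 h (exact permutation test, two-sided, p = 0.0286 at each time, the smallest that 4 arrays against 4 can give). After Benjamini-Hochberg adjustment over these 6 exact tests, p = 0.0429 for the 4 that reached that value. The part of either measure in the members' differences was not tested. In bulk RNA, a lower level in every cell and fewer cells that hold the transcript cannot be told apart.

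The members were dim. A value of 0 on the log2 scale used here is the 75th percentile of the array, 94 of the 100 members lay below it, and the median of their mean levels was -2.26, with a range from -3.88 to 1.77. Among the probes that could enter the rule the median level was 0.46, and 61% of the members fell among the dimmest 20% of these probes. Within groups the SD of a member had a median of 0.17, against 0.10 for all probes that could enter. For the 2405 of these within the members' middle range of level it was 0.16. Of the member genes, 97 code for proteins and 3 are long noncoding RNAs. Their median span in the genome was 35522.5 bases, against 23529 bases for the probes that could enter the rule and 28318 for the 2405 of like level.

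The median nsPEF minus sham difference of the members came to -0.14 in log2 units at 0 h, and to -0.33 at each later time, while it was -0.04, -0.05 and -0.02 for all probes that could enter the rule. Averaged over the 3 times, single members ran from -0.45 to -0.24 with a median of -0.27, a level in nsPEF of 0.828 times that in sham. The last members inside the limit were Sun5 and Senp8, both at -0.243, and the first gene outside it was Ypel1, at -0.242. The limit thus cuts through a dense run of values. In the other direction 823 genes lay above sham at all 3 times, and the gene at place 100 from that end had an average of 0.33. The lowest probe was at -0.45 and the highest at 0.95, so the lower end was the shorter one.

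On each array the median of the 100 members was taken. At 0 h the sham arrays stood at -1.57, -1.50, -1.68 and -1.52, and those with nsPEF at -1.75, -1.83, -1.75 and -1.75. At 4 h the sham arrays stood at -2.67, -2.73, -2.61 and -2.74, and those with nsPEF at -2.97, -2.98, -3.17 and -3.10. At 24 h the sham arrays stood at -1.87, -1.88, -1.93 and -2.10, and those with nsPEF at -2.16, -2.40, -2.22 and -2.38. The sham and nsPEF arrays did not overlap at any time, which the rule favours, and both treatments were lowest at 4 h. For single members, the highest nsPEF array was below the lowest sham array for 12 genes at 0 h, 39 at 4 h and 41 at 24 h, where this held for 6.14%, 12.7% and 11.9% of the probes that could enter the rule. The rule used this contrast, and nothing is read from these counts. The 5 members that were separated at all 3 times were Ninl, Rab40b, Dusp19, Medag and Kif20b, and 33 members were separated at none. Leaving out 1 array turned the difference to 0 or above for 24 members at 0 h, 3 at 4 h and 7 at 24 h.

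**Figure D1:**
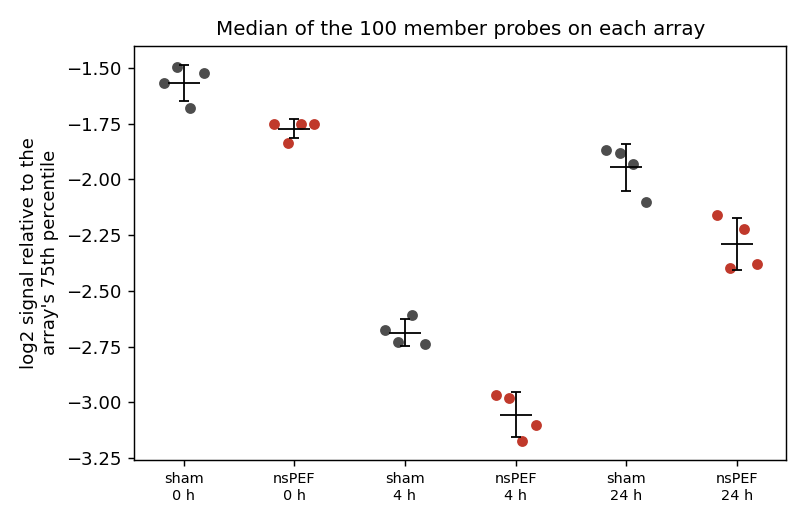
Median log2 signal of the 100 member probes on each of the 24 arrays (points), set against that array's 75th percentile, with the group mean and SD (lines, n = 4). Sham is grey and nsPEF is red. Both treatments are highest at 0 h and lowest at 4 h, and the nsPEF arrays lie below the sham arrays of the same time.

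Ninl, which codes for a ninein-like protein of the centrosome, had place 2 in the list. At 0 h it measured -1.55, -1.45, -1.43 and -1.50 on the sham arrays and -1.93, -1.96, -1.86 and -1.91 on the nsPEF arrays. At 4 h it measured -3.23, -2.92, -3.00 and -2.92 on the sham arrays and -3.87, -3.34, -3.63 and -3.75 on the nsPEF arrays. At 24 h it measured -2.71, -2.55, -2.75 and -2.77 on the sham arrays and -2.81, -3.02, -2.93 and -2.97 on the nsPEF arrays. The nsPEF arrays were below the sham arrays at each time without overlap, and the differences of the group means were -0.43, -0.63 and -0.24. With time Ninl fell in both treatments, by 1.63 ± 0.06 on the log2 scale from 0 h to 4 h (SE, limma adjusted p = 4.19e-15), a 3.1-fold fall, and it was still lower at 24 h, by 1.11 ± 0.06 (SE, limma adjusted p = 1.8e-11). The 3 other passing probes of Ninl, of the same accession and at levels of -0.49, 0.35 and 0.68, fell less, with changes of -0.57 ± 0.05, -0.61 ± 0.05 and -0.70 ± 0.06 from 0 h to 4 h (SE), and their nsPEF minus sham differences averaged -0.04, -0.10 and -0.08, against -0.43 for the member probe.

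Rab40b is a small GTPase with a SOCS box, which recruits proteins to a ubiquitin ligase. At 0 h it measured -1.46, -1.37, -1.41 and -1.38 on the sham arrays and -1.63, -1.78, -1.50 and -1.57 on the nsPEF arrays. Its values at 4 h were -3.47, -3.32, -3.49 and -3.39 on the sham arrays and -3.50, -3.81, -3.65 and -3.54 on the nsPEF arrays. At 24 h it measured -2.92, -2.74, -2.88 and -2.74 on the sham arrays and -3.22, -3.52, -3.49 and -3.74 on the nsPEF arrays. The differences of the means were -0.22, -0.21 and -0.67, again without overlap. The change over the first 4 h was far larger than any of these, -2.01 ± 0.06 (SE, adjusted p = 1.49e-16) on the log2 scale by limma, and 24 h after exposure the level was 3.13-fold below 0 h.

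Cbll1, also called Hakai, is a ubiquitin ligase for E-cadherin and a partner of the enzymes that methylate adenosine in messenger RNA. Its values were -1.64, -1.47, -1.67 and -1.77 on the sham arrays and -1.77, -1.99, -1.93 and -2.12 on the nsPEF arrays at 0 h. They were -1.31, -1.28, -1.07 and -1.11 on the sham arrays and -1.52, -1.43, -1.64 and -1.71 on the nsPEF arrays at 4 h and -2.11, -1.95, -1.92 and -1.89 on the sham arrays and -2.17, -2.41, -2.26 and -2.49 on the nsPEF arrays at 24 h. The differences of -0.31, -0.38 and -0.37 were nearly alike at the 3 times, and the groups overlapped at 0 h, where sham replicate 4 was level with nsPEF replicate 1. Unlike most members, Cbll1 rose from 0 h to 4 h, by 0.41 ± 0.06 (SE, adjusted p = 8.62e-06) with limma. The 2 other passing probes of Cbll1, at levels of -1.96 and 0.75, did not share the low values. Their nsPEF minus sham differences averaged -0.01 and -0.08, against -0.35 for the member probe. They rose by 0.84 ± 0.10 and 0.66 ± 0.04 (SE) from 0 h to 4 h.

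**Figure D2:**
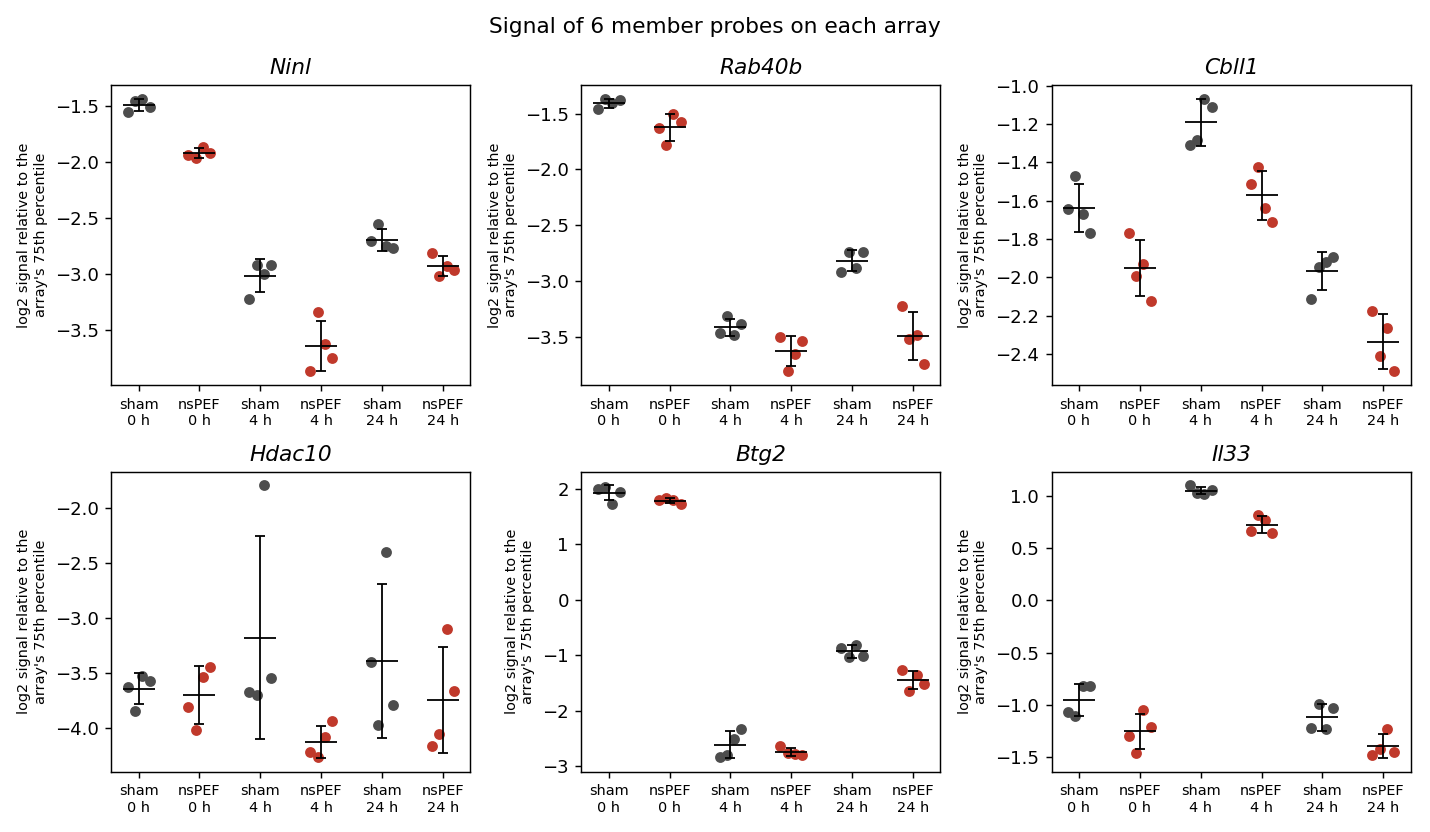
Log2 signal of 6 member probes on every array, set against that array's 75th percentile, with group means and SD (lines, n = 4), each panel on its own axis. Ninl and Rab40b are separated at all 3 times, Cbll1 and Il33 rose at 4 h in both treatments, Btg2 fell most, and in Hdac10 single sham arrays stand far above the rest.

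At the first place in the list, the differences at 4 and 24 h depended strongly on single sham arrays. Hdac10, a deacetylase that acts on acetylated spermidine, headed the list. After 4 h the gene measured -3.67, -3.70, -1.79 and -3.54 on the sham arrays and -4.22, -4.26, -4.08 and -3.93 on the nsPEF arrays. Sham replicate 3 alone stood out, and without it the difference of -0.95 was -0.48. At 24 h the same gene measured -3.40, -3.97, -2.40 and -3.78 on the sham arrays and -4.16, -4.05, -3.10 and -3.66 on the nsPEF arrays, and without sham replicate 3 the difference of -0.35 was -0.03. At 0 h its values were -3.62, -3.84, -3.53 and -3.57 on the sham arrays and -3.81, -4.01, -3.54 and -3.44 on the nsPEF arrays and the groups overlapped.

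Foxp3, the master transcription factor of regulatory T cells, measured -3.91, -3.05, -2.77 and -2.55 on the sham arrays and -3.63, -3.70, -4.21 and -4.47 on the nsPEF arrays at 4 h. Its difference there was -0.93, and at 24 h it was -0.20, which turned to 0.19 without nsPEF replicate 4. Of the macrophage list, which holds the leukocyte marker Ptprc, Cd68, Csf1r and Cd14 were well above background on all 24 arrays, Lyz2 on 4, Aif1 on 2, and Ptprc and Adgre1 on 1. Gm7072, a predicted protein-coding gene, was at -0.67 at 24 h with sham replicate 4 inside the range of the nsPEF arrays, and its difference of -0.08 at 0 h turned to 0.02 without sham replicate 2.

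Further members of the first 20 places are described by what they are known to do, with no theme implied. The list of chromatin regulators held 0 members among 57 genes, but it did not include Cbx8, so its count is no total for that class. Med23, a subunit of the Mediator complex that links activators to RNA polymerase, had differences of -0.25, -0.46 and -0.33 at 0, 4 and 24 h. Cbx8, a reader of trimethylated histone H3 in the Polycomb complex, had -0.10, -0.50 and -0.40. Eya3, a phosphatase and co-activator, had -0.38, -0.36 and -0.27. For the zinc finger gene Zfp334 the differences were -0.29, -0.48 and -0.22, for Zbtb8b -0.05, -0.31 and -0.62, and for Zbtb46, a transcription factor of dendritic cells, -0.26, -0.33 and -0.38. Leaving out 1 array moved the difference of Eya3 at 0 h to as little as -0.21 and that at 24 h to -0.16, and that of Med23 at 0 h to -0.16. The other passing probes of Med23, Eya3 and Zbtb46 had average differences of -0.07, 0.01 and 0.07. With time, Cbx8 changed by -1.32 ± 0.10 and Zbtb8b by -1.89 ± 0.07 from 0 h to 4 h (SE, limma adjusted p = 2.83e-10 and 2.31e-15), while Zfp334 rose by 0.46 ± 0.12 (SE, limma adjusted p = 0.00155).

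The other reported members of the first 20 places follow, again with no theme implied. Cdc40, a splicing factor of the second catalytic step, had differences of -0.28, -0.31 and -0.39. Scfd1, which governs the fusion of vesicles between the endoplasmic reticulum and the Golgi, had -0.17, -0.42 and -0.39, and Manea, a mannosidase of the Golgi, had -0.00, -0.39 and -0.61. Sat2, of the spermidine acetyltransferase family, had -0.17, -0.28 and -0.52. Gpm6a, a membrane glycoprotein best known from neurons, had -0.15, -0.06 and -0.75 with most of it at 24 h. The tetratricopeptide protein Ttc27 had -0.20, -0.50 and -0.34, and 0610040B10Rik, a long noncoding RNA, had -0.10, -0.40 and -0.52. The other passing probes of Ttc27 and Sat2 had average differences of -0.06 and -0.08. For Manea and Gpm6a the difference was close to 0 at 1 of the 3 times, so membership required the same sign at each time but no minimum at any.

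From 0 h to 4 h, averaged over both treatments, 71 of the 100 members fell and 9 rose at an adjusted p under 0.05 with limma over 37684 tested probes. Among all tested probes 33.7% fell and 35.8% rose, and among the probes that could enter the rule 40.7% fell and 41.2% rose. Among the 2405 probes that could enter and lay in the middle range of level of the members, 44.3% fell and 35.3% rose. The median change of the members was -0.75, against 0.01 for the probes that could enter and -0.09 for those of like level. A fall of at least 1 on the log2 scale was found for 39 members. The lower quartile of the change was -1.31 for the members, -0.42 for the probes that could enter and -0.57 for those of like level. A fall of at least 1 thus lay beyond the lower quartile of both comparison sets. Any difference between the times was found for 89 members by limma's F test, against 80.3% of the tested probes. For the probes that could enter the rule this share was not computed. Of them, 40.7% fell and 41.2% rose already from 0 h to 4 h, so no excess is read from the 89.

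At 24 h the members were partly back. Against 0 h, 62 were lower and 11 higher, where 23.9% of all tested probes were lower and 28.7% higher, and 32.9% and 29.4% of the probes that could enter the rule. Against 4 h, 57 were higher and 19 lower, where 33.6% of tested probes were higher and 33.1% lower, and 36.7% and 42.4% of those that could enter. The median change was -0.30 from 0 h to 24 h and 0.36 from 4 h to 24 h. Of the 71 members that fell by 4 h, 56 rose again by 24 h, 50 were still below 0 h at 24 h, 14 were not called against 0 h and 7 were above it. For other probes that fell by 4 h this split was not computed. In the sham arrays alone 65 members fell by 4 h and 42 were lower at 24 h, and in the nsPEF arrays alone 71 and 57 did. The members were chosen by their nsPEF minus sham differences, with medians of -0.14, -0.33 and -0.33 at 0, 4 and 24 h. A larger fall after nsPEF follows from such differences. Calls of other probes within a single treatment were not computed, so no effect of nsPEF on the time course is read from these counts. Scaling on the spike-in RNA turned the comparison of 24 h with 0 h, with 56 members higher and 19 lower, where 79.7% of the tested probes were higher and 2.7% lower and their median change was 0.62. Slide and time cannot be told apart in any of these counts.

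**Figure D3:**
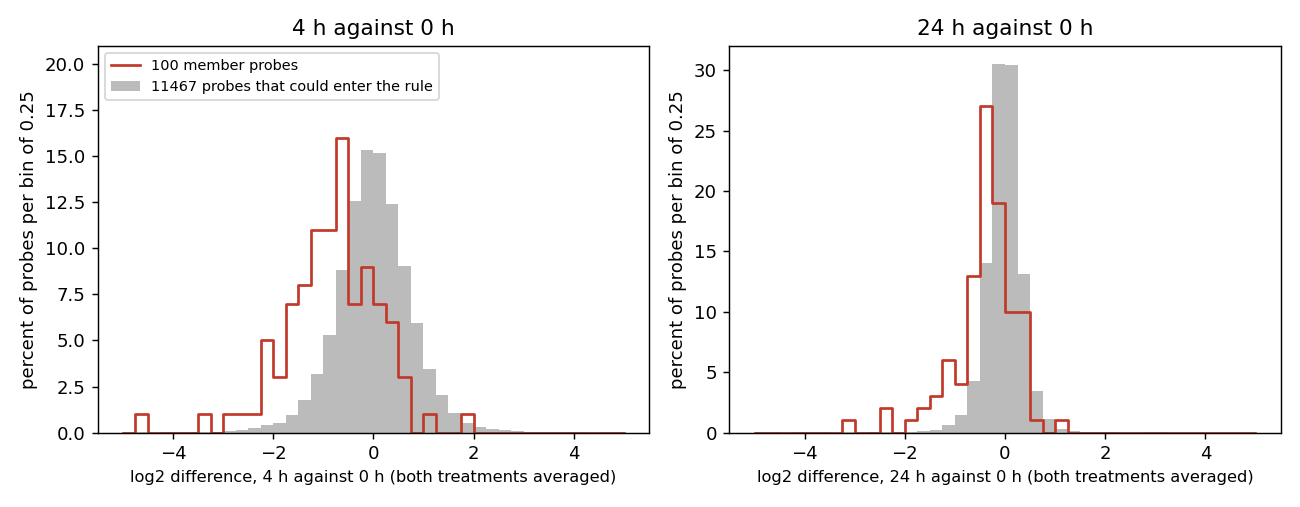
Distribution of the log2 change from 0 h to 4 h (left) and from 0 h to 24 h (right), averaged over sham and nsPEF, in bins of 0.25 as percent of probes. Grey bars show the 11467 probes that could enter the rule and the red line the 100 members, whose medians are -0.75 and -0.30.

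Across the 11467 probes, the average nsPEF minus sham difference and the change from 0 h to 4 h had a Pearson correlation of 0.218 and a Spearman correlation of 0.253. For the change from 0 h to 24 h they were 0.220 and 0.242, and for 24 h against 4 h -0.126 and -0.169. The points share arrays, level and scaling and are not independent replicates, so these are descriptions with no test. The members' counts over time are therefore not independent of the rule that chose them.

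The 5 members that fell most from 0 h to 4 h were Btg2, Neurl1b, Bmf, Fam13c and Trp53inp1. Btg2, a target of p53 that slows proliferation and promotes removal of the poly(A) tail, measured 2.00, 2.03, 1.73 and 1.93 on the sham arrays and 1.79, 1.82, 1.79 and 1.73 on the nsPEF arrays at 0 h. At 4 h the values were -2.83, -2.80, -2.51 and -2.33 on the sham arrays and -2.63, -2.76, -2.79 and -2.81 on the nsPEF arrays, and at 24 h -0.87, -1.04, -0.81 and -1.02 on the sham arrays and -1.27, -1.64, -1.36 and -1.53 on the nsPEF arrays. It fell by 4.54 ± 0.07 within 4 h (SE, limma adjusted p = 4.88e-21), 23.2-fold, and by 24 h it was 8.26-fold below 0 h. Sham and nsPEF overlapped at 4 h, and at 24 h all nsPEF arrays were lower, with a difference of -0.52.

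Trp53inp1, which is induced by p53 and acts in apoptosis and autophagy, measured -1.40, -1.23, -1.46 and -1.38 on the sham arrays and -1.45, -1.64, -1.43 and -1.46 on the nsPEF arrays at 0 h. At 4 h it measured -3.43, -4.07, -3.60 and -3.62 on the sham arrays and -3.96, -3.96, -3.90 and -3.97 on the nsPEF arrays, and at 24 h -1.35, -1.50, -1.29 and -1.70 on the sham arrays and -1.64, -1.96, -1.99 and -2.09 on the nsPEF arrays. The change over 4 h was -2.38 ± 0.08 (SE, adjusted p = 6.41e-16) with limma, 5.22-fold, and most of it was regained by 24 h. Bmf, a BH3-only protein that antagonizes Bcl-2, measured 1.59, 1.62, 1.36 and 1.67 on the sham arrays and 1.61, 1.38, 1.62 and 1.51 on the nsPEF arrays at 0 h. Its values at 4 h were -0.93, -1.49, -1.19 and -1.26 on the sham arrays and -1.61, -1.86, -1.46 and -1.75 on the nsPEF arrays, and at 24 h 1.16, 1.07, 1.13 and 1.04 on the sham arrays and 0.93, 0.68, 0.84 and 0.40 on the nsPEF arrays. It fell 7.94-fold within 4 h (-2.99 ± 0.08, SE, limma adjusted p = 1.98e-17) and rose 5.1-fold from 4 h to 24 h.

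Neurl1b, a ubiquitin ligase that acts on Notch ligands, fell 10.3-fold, from group means of 0.39 and 0.37 in sham and nsPEF at 0 h to -2.80 and -3.17 at 4 h (-3.36 ± 0.08, SE, limma adjusted p = 2.24e-18). Fam13c fell 5.74-fold (-2.52 ± 0.08, SE, limma adjusted p = 1.19e-16), but its brighter other probe, of the same accession, changed by 0.04 ± 0.06 (SE, limma adjusted p = 0.604). Oma1, a protease of the inner mitochondrial membrane, Neu3, the sialidase of the plasma membrane, and Wrn, a DNA helicase, changed by -1.97 ± 0.07, -2.01 ± 0.08 and -2.02 ± 0.10 on the log2 scale (SE). Oma1 and Neu3 were at -0.31 and -0.07 relative to 0 h by 24 h, while Wrn was still at -0.97. The other probes of Wrn changed by -1.84 ± 0.05 and -0.74 ± 0.10 (SE) from 0 h to 4 h.

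Members that rose were few. Il33, an alarmin stored in the nucleus and released from damaged cells, measured -1.06, -1.10, -0.82 and -0.82 on the sham arrays and -1.29, -1.46, -1.05 and -1.21 on the nsPEF arrays at 0 h. After 4 h the gene measured 1.10, 1.03, 1.02 and 1.05 on the sham arrays and 0.67, 0.82, 0.76 and 0.64 on the nsPEF arrays, and at 24 h -1.22, -0.99, -1.23 and -1.02 on the sham arrays and -1.48, -1.42, -1.23 and -1.45 on the nsPEF arrays. Its rise by 4 h was 1.99 ± 0.06 (SE, adjusted p = 1.19e-16) with limma, 3.96-fold in both treatments together, and at 24 h it was close to 0 h again. The nsPEF minus sham differences were -0.30, -0.33 and -0.28, and the groups overlapped at 0 h and touched at 24 h. On the other probe of Il33, at a level of 3.74, the differences were -0.13, -0.01 and -0.25. Disp2, of the Dispatched family that releases lipid-modified Hedgehog, rose by 1.08 ± 0.11 (SE, adjusted p = 2.75e-08) by 4 h and was as high at 24 h. Stx11, a syntaxin of immune cells, rose by 0.70 ± 0.17 (SE, adjusted p = 0.00126), Actr2, a subunit of the actin-nucleating Arp2/3 complex, by 0.57 ± 0.15 (SE, adjusted p = 0.00218), and the zinc finger gene Zfp54 by 0.52 ± 0.08 (SE, adjusted p = 1.36e-05), all by limma.

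At 24 h the members furthest below 0 h were Btg2, Hp, Ifitm1, Phyhd1 and Rab40b. Hp, the plasma protein haptoglobin of the acute phase, was the brightest member. At 0 h it measured 2.84, 2.98, 3.06 and 2.97 on the sham arrays and 2.77, 2.90, 2.89 and 2.75 on the nsPEF arrays. At 24 h it measured 0.75, 0.57, 0.87 and 0.75 on the sham arrays and 0.44, -0.14, 0.73 and -0.27 on the nsPEF arrays. It fell 5.39-fold (-2.43 ± 0.11, SE, limma adjusted p = 4.18e-13), and at 24 h sham replicate 2 lay below nsPEF replicate 3, so the groups overlapped. Ifitm1, an interferon-induced membrane protein that restricts viruses, fell 4.89-fold in the same interval (limma adjusted p = 1.25e-09) and Phyhd1, a dioxygenase, 3.68-fold (limma adjusted p = 2e-12). For all 3 the nsPEF difference was mainly that of 24 h, at -0.54, -0.79 and -0.66, against -0.07, -0.01 and -0.02 at 4 h. On the nsPEF arrays of 24 h, Ifitm1 measured -2.64, -3.92, -2.21 and -3.73 and Phyhd1 -1.06, -1.87, -1.13 and -1.83. Replicates 2 and 4 were thus the lowest for all 3 genes. Ifitm1 overlapped its sham arrays of 24 h, at -2.17, -2.61, -2.12 and -2.42. Above 0 h at 24 h were Disp2, Rccd1, Zfp54, Zfp799 and the homeobox gene Hoxb8, by 1.03, 0.64, 0.49, 0.43 and 0.41 on the log2 scale. Under the spike-in scaling the median of all tested probes was itself higher at 24 h, as given above.

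Dusp19, a dual-specificity phosphatase, was separated between the treatments at all 3 times with differences of -0.23, -0.44 and -0.26. It measured -1.70, -1.46, -1.61 and -1.60 on the sham arrays and -1.81, -1.81, -1.78 and -1.89 on the nsPEF arrays at 0 h. At 4 h the values were -2.66, -2.78, -2.48 and -2.58 on the sham arrays and -2.99, -2.96, -3.06 and -3.25 on the nsPEF arrays. Medag, named for its part in the formation of fat cells, measured 0.36, 0.16, 0.45 and 0.22 on the sham arrays and -0.01, -0.12, -0.07 and -0.22 on the nsPEF arrays at 4 h. Kif20b, a kinesin of cell division, was among the brighter members, at 1.06, 1.17, 1.10 and 0.91 on the sham arrays and 0.87, 0.68, 0.66 and 0.74 on the nsPEF arrays at 24 h. In each of these the highest nsPEF array stayed below the lowest sham array.

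Members were then counted in functional lists. Of 47 lists, 35 held none, among them Leydig steroidogenesis with 11 genes that could enter the rule, the 29 of respiratory complex I, the 77 cytosolic ribosomal proteins and the 37 proteasome subunits. The lists that held at least 3 were the Zfp zinc finger genes, with 4 of 221 genes (1.81%: Zfp334, Zfp799, Zfp979 and Zfp54), and ubiquitin conjugating and ligase genes, with 3 of 142 (2.11%: Trim33, Fbxo3 and Rnf13). The ubiquitin list did not hold Cbll1 and Neurl1b, described above as ubiquitin ligases, so its count is no total for that class. All members together are 1.10% of the genes that could enter. At that share lists of these sizes can be empty, so nothing is read from those that held none. The p53 target list held 2 of 15 genes, Trp53inp1 and Btg2, and the apoptosis list 2 of 28, Bmf and Diablo, whose product frees caspases from their inhibitors. Golgi and vesicle transport held 2 of 42, Copg2, a coat protein, and Vamp4, a SNARE. Over all probes of the Zfp list that could enter, the median nsPEF minus sham difference was -0.04, -0.08 and -0.10 at 0, 4 and 24 h, against -0.04, -0.05 and -0.02 for all probes that could enter. Of the members, 81 were in no list, and this share was not computed for all genes that could enter.

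For 60 member genes the array held 77 other probes that also passed on all 24 arrays, in any row, and these mostly did not share the low values. The other probe was brighter than the member probe for 65 of them, by a median of 2.45 on the log2 scale over all 77. Their average nsPEF minus sham difference had a median of -0.07, against -0.27 for the member probes of the same genes, and it was nearer to 0, or above it, for 76 of the 77. It was below 0 for 61, below 0 at all 3 times for 27, and at most -0.2 for 7. Since the lowest probe of each gene was taken, the other probes had to be higher where they lay in the same rows, as 48 did. For Hdac10, the other probe had a level of 0.48 against -3.63 and differences of 0.07, -0.04 and 0.02. For Med23, it had a level of 1.93 and differences of 0.01, -0.20 and -0.01. For Actr2, it had 3.17 and -0.07, -0.05 and 0.00. The amyloid precursor gene App had a second probe at a level of 3.92 with differences of -0.00, 0.06 and -0.24, and Medag one at 7.54 with 0.06, 0.39 and 0.11, above sham.

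Some of the other probes that averaged below sham lay well below their median of -0.07. Retreg3, an endoplasmic reticulum protein of the reticulophagy regulators, had -0.29, -0.26 and -0.18 on a probe at a level of 1.50, with -0.37, -0.26 and -0.25 on the member probe, whose 0 h value rests on sham replicate 4 and was -0.03 without it. Cpne3, a calcium-dependent copine, had -0.13, -0.31 and -0.32 on its other probe, and Hyls1, a centriole protein, -0.13, -0.25 and -0.20. The long noncoding RNA Gm41724 had -0.08, 0.08 and -0.77, mainly at 24 h, as on its member probe with -0.12, -0.05 and -0.59. Which transcripts each probe reads was not examined, and 58 of the 77 carried the same transcript accession as the member probe.

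Of 52 other probes of members that fell from 0 h to 4 h, 42 also fell and 1 rose at an adjusted p under 0.05 with limma. Of all tested probes 33.7% fell and 35.8% rose, and of the probes that could enter the rule 40.7% and 41.2%. Over all 77 the median change was -0.28, against -0.59 for the member probes beside them. The other probe of Btg2 fell by 4.11 ± 0.06 and that of Il33 rose by 2.05 ± 0.05 (SE), close to the member probes. For Bmf the dim other probe changed by -0.30 ± 0.25 (SE, adjusted p = 0.295), and that of Trp53inp1 by -0.45 ± 0.08 (SE, adjusted p = 7.95e-05), both far less than the member probe. For Fam13c the difference between its probes was given above.

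**Figure D4:**
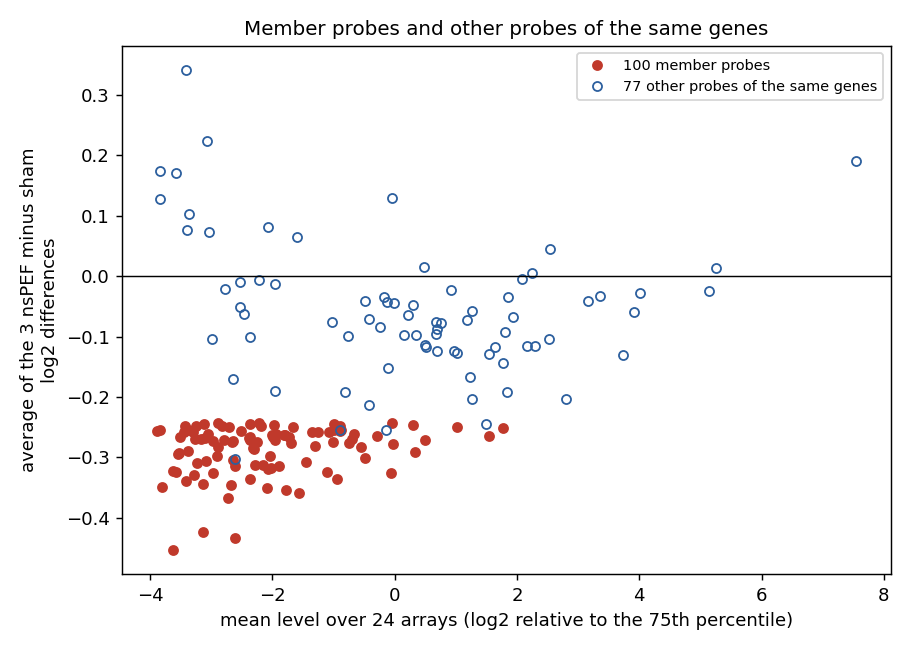
Average of the 3 nsPEF minus sham log2 differences (vertical axis) against the mean level over the 24 arrays (horizontal axis, log2 relative to the 75th percentile) for the 100 member probes (red) and for 77 other probes of the same genes that passed on all arrays (open blue). The other probes are mostly brighter and lie nearer to 0, with a median of -0.07 against -0.27.

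The size of the members' differences moved with the background correction. At 4 h the median signal of the member spots, before background was taken off, was 98.2 to 148 on sham arrays and 73 to 84.5 on nsPEF arrays, and after it 71.3 to 118 and 41.3 to 55.1, while the negative control spots read 25 to 26 on all of these arrays. Without background subtraction the median differences were -0.09, -0.10 and -0.22 at 0, 4 and 24 h. With the level of the negative controls subtracted they were -0.13, -0.28 and -0.30, and with normexp and no offset -0.16, -0.23 and -0.27. Normexp with an offset of 50, which pulls dim values together, gave -0.09, -0.03 and -0.15, and 51 members were then below sham at all 3 times. Under it the brighter 50 members had a median of -0.08 at 4 h and the dimmer 50 one of 0.03. Scaling on the spike-in RNA gave 0.01, -0.14 and -0.39, with 40 members below sham at all 3 times. The spike-in level relative to the 75th percentile averaged 1.75, 1.70 and 1.07 on the sham arrays of 0, 4 and 24 h and 1.60, 1.51 and 1.13 on those with nsPEF.

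**Figure D5:**
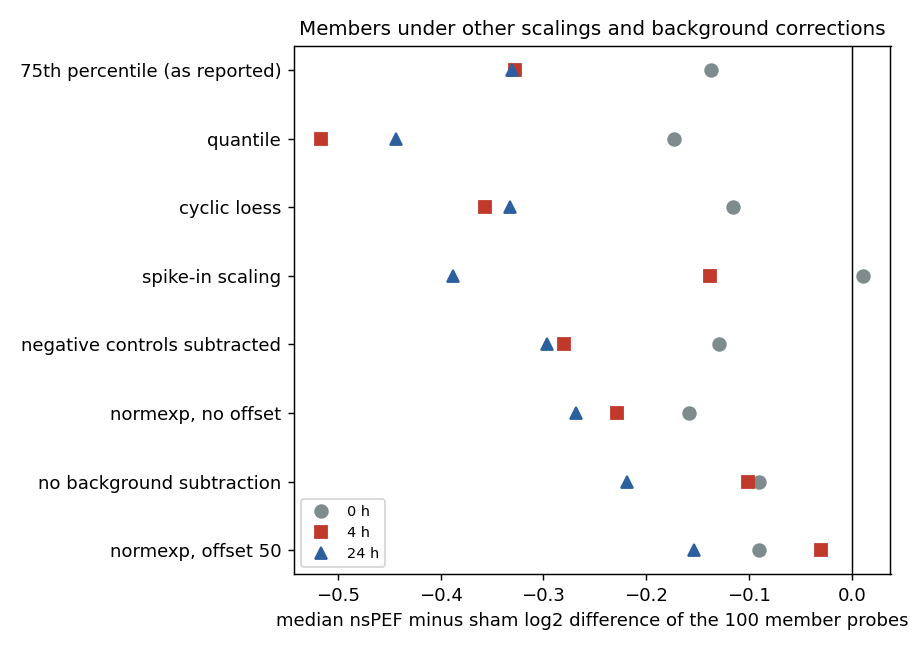
Median nsPEF minus sham log2 difference of the 100 members at 0, 4 and 24 h (symbols) under 8 scalings and background corrections (rows). The order of the 3 times and the size change with the setting, from -0.52 to -0.03 at 4 h, and only the spike-in scaling puts the 0 h median above 0.

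Promoter sequence was available for 79 members, in windows of 300 bases from 250 before to 50 after the start in RefSeq (build GRCm38.p6), taking the first listed start of a gene. The windows of the 3 highest-ranked members with an entry are printed 5′ to 3′ to show what the first places of the list carry upstream, with capitals marking any match on either strand to TGACGTCA (the cyclic AMP response element), TGANTCA (bound by factors of the Fos and Jun families), CACGTG (bound by basic helix-loop-helix factors), CCAAT (bound by nuclear factor Y), GGGCGG (bound by the Sp family) or TATAAA (bound by the general initiation machinery), none of which contains another. They lie at chr2:151009349-151009648 on the minus strand (Ninl), chrX:7579426-7579725 on the plus strand (Foxp3) and chr11:121388202-121388501 on the minus strand (Rab40b).
Ninl: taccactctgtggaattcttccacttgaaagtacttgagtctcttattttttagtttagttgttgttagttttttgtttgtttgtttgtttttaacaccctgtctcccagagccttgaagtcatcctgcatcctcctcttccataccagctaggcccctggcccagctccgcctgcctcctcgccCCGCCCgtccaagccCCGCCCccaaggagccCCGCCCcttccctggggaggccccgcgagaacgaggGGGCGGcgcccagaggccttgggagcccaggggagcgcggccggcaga
Foxp3: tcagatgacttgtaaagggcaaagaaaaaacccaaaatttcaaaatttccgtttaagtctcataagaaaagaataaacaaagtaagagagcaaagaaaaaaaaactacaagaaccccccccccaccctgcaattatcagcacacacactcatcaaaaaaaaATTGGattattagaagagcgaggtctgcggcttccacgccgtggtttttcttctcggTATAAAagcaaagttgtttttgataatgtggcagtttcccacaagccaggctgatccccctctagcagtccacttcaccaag
Rab40b: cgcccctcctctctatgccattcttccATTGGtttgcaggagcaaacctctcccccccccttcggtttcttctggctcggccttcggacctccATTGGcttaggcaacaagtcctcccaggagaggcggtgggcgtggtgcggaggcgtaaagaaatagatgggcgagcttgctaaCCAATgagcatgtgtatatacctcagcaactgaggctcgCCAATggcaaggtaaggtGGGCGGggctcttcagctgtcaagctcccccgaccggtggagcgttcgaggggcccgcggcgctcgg
Ninl held 4 GGGCGG boxes and none of the others, Foxp3 a TATAAA and a CCAAT on the opposite strand, and Rab40b 4 CCAAT boxes, as many on each strand, and 1 GGGCGG box.

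Over all 79 member promoters the shares that held a motif lay on both sides of those of other genes. CCAAT was in 38 (48.1%), against 38.9% of 7263 promoters of genes that could enter the rule and 37.9% of all 27025. GGGCGG was in 46 (58.2%), against 63.2% and 35.9%. TATAAA was in 8 (10.1%), against 7.52% and 14.2%, and CACGTG in 5 (6.33%), against 10.2% and 7.24%. TGACGTCA was in 5 (6.33%), against 3.35% and 1.88%, among them Btg2 and Cbx8, and TGANTCA in 1, Zbtb46 (1.27%), against 4.93% and 7.93%. The median GC content was 59%, against 60.7% and 52.7%. A match is a run of letters and no measure of binding.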

How the data were processed

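RNA of 24 samples of TM3 cells was measured on 1 one-colour array each. The authors labelled the RNA with Cy3, scanned the arrays and deposited the text output of Agilent Feature Extraction 12.0, with the median, local background and processed intensity of each spot in arbitrary units, unscaled between arrays. The deposited table of the series holds log2 values that the authors had shifted to the 75th percentile and centred on the median of each probe; its columns matched the arrays with 0 left over, and the arrays had medians from -0.20 to 0.29. It served as an alternative, with its direction taken from the arrays.

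Here log2 of the processed intensity was taken, less the 75th percentile over the 59305 spots of each array that are no controls. Unmarked spots of a probe were averaged. Saturated spots numbered 0. Symbols came from RefSeq (GRCm38.p6) through the transcript accession of the probe, for 34566 of 56605 probes, and since the scanner files name the build mm9 no gene coordinate was taken across builds. The members and lists were chosen with earlier results of these data known. Named are the first 20 members, the 5 largest rises and falls at 4 and at 24 h against 0 h, members of lists that hold at least 3, some of the 60 members with another passing probe, and the genes at the limit, with Dusp19, Medag, Kif20b, Oma1, Neu3, Wrn and the pairs in smaller lists added after their values were seen. The members named for another probe were picked after their values were seen, and the rest of the 60 are given by counts. Furthermore, 1 of the first 20 members and 1 gene at the limit are not reported here, though counts and medians over the members include the former.

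With limma 3.58.1 in R 4.3.3, 6 group means were fitted to the 37684 probes that passed the background call on 2 or more arrays of 1 group, with Benjamini-Hochberg adjustment of the p values over all of them. The fit was tested on simulated data. P values measure the spread of the labelled biological replicates. Alternatives were other scalings, background corrections, filters and array weights, all rows or bands of 24 rows, sham or nsPEF alone, a plain two-way analysis of variance, the deposited log2 values, a replicate block and leaving out arrays. Normexp used the median intensity, since the files hold no mean intensity. The paper states that, adhesion aside, the tests of a biological replicate ran in parallel on a shared cell suspension. Sham and nsPEF of a replicate may thus be paired, though the sample labels give only a replicate number. Of 12 same-numbered sham and nsPEF pairs, 7 had deviations that correlated above 0.1 (range -0.16 to 0.29), which does not settle it. The main fit held no term for pairs, and the replicate block was run as an alternative. Precision is limited by the number of arrays and the dimness of the spots.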

Additional observations from a re-analysis of the deposited data

Results flagged for a closer look

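Of 72 groups of 4 arrays that were examined, 4 held an array far from the other 3, where chance gives about 1 in 20. The 75th percentile of the intensity was 787 on sham replicate 4 at 4 h, against 455 to 473 on the other sham arrays of that time. The member median was -1.83 on nsPEF replicate 2 at 0 h, with the other 3 arrays at -1.75. Hdac10 stood at -1.79 on sham replicate 3 at 4 h, against -3.70 to -3.54, and Gm7072 at -1.84 on sham replicate 4 at 24 h, against -1.03 to -0.92. Causes were not tested.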

How the results depend on the processing

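Quantile normalization gave median nsPEF minus sham differences of -0.52 at 4 h and -0.44 at 24 h, and 61 members returned when the rule was applied again. Scaling on the spike-in probes gave 0.0114 at 0 h and -0.14 at 4 h, 40 members below sham at all 3 times, 41 that returned, 56 higher and 19 lower at 24 h against 0 h, and 4 lower at 24 h against 4 h. Normexp with the offset of 50 gave -0.0300 at 4 h and -0.15 at 24 h, 51 members below sham at all 3 times and 19 that returned. Among settings added after the data were seen, normexp without an offset gave -0.23 at 4 h and 62 that returned, subtraction of the negative controls 63 that returned, and no background subtraction -0.10 at 4 h, -0.22 at 24 h and 27 that returned. With all rows of spots 49 returned, and in the nsPEF arrays alone 5 members rose by 4 h. The causes were not tested.

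Leaving out a replicate number or 1 array gave medians of -0.18 to -0.11 at 0 h, -0.37 to -0.29 at 4 h and -0.38 to -0.30 at 24 h, 78 to 100 members below sham at all times and 60 to 92 that returned, fewest without replicates 4 (60) and 2 (62). From 0 h to 4 h, 67 to 74 members fell and 6 to 12 rose, from 0 h to 24 h 50 to 63 were lower and 8 to 12 higher, from 4 h to 24 h 55 to 59 were higher and 17 to 22 lower, and 84 to 93 had any time effect. The count that fell by 4 h was 65 to 79 under the other settings. With a replicate block 71 members fell by 4 h, 60 were lower at 24 h than at 0 h and 91 had any time effect, and the plain two-way analysis of variance gave 89. In 5 of 12 same-numbered pairs the sham array correlated best with the nsPEF array of its own number. Among 4 nsPEF arrays some such matches arise by chance, so this count does not settle whether the arrays are paired.

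For 83 called time changes of named members, 3735 values were computed under these settings, of which 3606 kept direction and call, 117 kept direction only and 12 turned. With the spike-in scaling, Cbll1, Ttc27, Scfd1, Zbtb46, Il33 and Trp53inp1 were at 0.22, 0.27, 0.28, 0.20, 0.43 and 0.32 at 24 h against 0 h, and Ttc27, Eya3, Zfp334, Scfd1 and Zbtb46 at 0.0951, 0.0602, 0.20, 0.20 and 0.20 at 24 h against 4 h, all below the median shift of all probes. In the nsPEF arrays alone Gpm6a was at -0.14 at 24 h against 4 h.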
